A study of Mus musculus with 18 samples.

Results

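Class I molecules of the major histocompatibility complex (MHC) carry peptides from inside the cell to its surface, where CD8 T cells read them. The peptides are cut by the proteasome, pumped into the endoplasmic reticulum by a transporter and loaded there onto a heavy chain paired with beta-2 microglobulin. In the liver, class I genes are expressed at a basal level by hepatocytes and by the resident immune and endothelial cells, and interferons raise the expression of the whole set. The 10 genes described here were chosen by name to cover these steps, out of 55335 genes in the count table and 17013 genes tested. They are the light chain B2m, the classical heavy chains H2-K1 and H2-D1, the transporter subunits Tap1 and Tap2, the loading chaperone Tapbp (tapasin), the immunoproteasome subunits Psmb8, Psmb9 and Psmb10 and the transactivator Nlrc5. All 10 of 10 passed the filter on low counts, and the lowest count of any of them in any library was 103, for Psmb9.

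RNA was sequenced from mouse hepatocellular carcinomas, tumours of the liver, in 4 groups of 3 libraries. The DEN+CCl4 depletion and DEN+CCl4 control tumours were raised with 2 chemicals. The mutagen DEN (N-nitrosodiethylamine) was given at 14 days of age at 1 mg/kg, and CCl4 (carbon tetrachloride), which injures hepatocytes, was given at 0.2 ml/kg over 12 to 16 weeks starting when the mice were 8 weeks old. The N-Ras+AKT depletion and N-Ras+AKT control tumours arose after tail vein injection of plasmids for activated N-Ras and myristoylated AKT (20 µg each) with the Sleeping Beauty transposase (1.6 µg), which inserts them into hepatocytes. All 12 libraries carry the strain label Prom1C-L/+;Rosa26DTA/+, in which a tamoxifen-activated Cre under the Prom1 promoter (Prom1-CreERT2-LacZ) switches on diphtheria toxin A and kills cells that express Prom1, a marker of progenitor-like tumour cells. Depletion mice had several 4 mg doses of tamoxifen, and their DEN+CCl4 tumours were collected 16 days, and their N-Ras+AKT tumours 6 days, after dosing ended. The design text names Prom1+/+;Rosa26DTA/+ littermates as controls and also an olive oil vehicle, so it is not settled which of these (no Cre allele, no tamoxifen, or both) made a tumour a control. Because Cre is under the Prom1 promoter, cells of any kind that express Prom1 can be removed. The time after the last dose differs between the models, so model and time cannot be told apart.

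Library totals ran from 31306617 to 39840156 counts in DEN+CCl4 depletion, 36336745 to 43130284 in DEN+CCl4 control, 37258632 to 42197526 in N-Ras+AKT depletion and 37451706 to 48055812 in N-Ras+AKT control. Prom1 had 17.4, 40.0 and 35.7 CPM (counts scaled to the TMM-adjusted library size) in DEN+CCl4 depletion 6, 9 and 10, against 60.1, 76.7 and 48.9 CPM in DEN+CCl4 control 7, 8 and 13. It had 5.81, 16.5 and 2.17 CPM in N-Ras+AKT depletion 6, 11 and 17, against 45.4, 59.2 and 78.3 CPM in N-Ras+AKT control 3, 10 and 15. The difference passed the test in N-Ras+AKT (adjusted p = 0.00953) and not in DEN+CCl4 (adjusted p = 0.381). DEN+CCl4 depletion 6 stood apart from the other libraries on a principal component and N-Ras+AKT depletion 17 had the least Prom1 RNA, so calls are also given without them. The 12 hepatocyte markers, Alb among them, summed to 92966 to 103770 CPM in N-Ras+AKT depletion and 100367 to 109951 CPM in N-Ras+AKT control, against 206760 to 277645 CPM in DEN+CCl4 depletion and 258840 to 323249 CPM in DEN+CCl4 control, so they were present in every library and lower in the N-Ras+AKT tumours. With depletion 3 of the 12 rose in N-Ras+AKT, against 12.8% of all genes, and 0 passed in DEN+CCl4 (edgeR; 1 higher and 2 lower at an unadjusted p under 0.05, against 7.63% and 11.1% of all genes; DESeq2 1 lower, limma-voom 0). In bulk tumour RNA, fewer cells of a type and less RNA per cell cannot be told apart.

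The members lie mostly in the MHC region of chromosome 17 (GRCm38 coordinates, GENCODE annotation). Of the 10, 7 are on that chromosome. Psmb9 (34181987 to 34187764, minus strand), Tap1 (34187553 to 34197225, plus), Psmb8 (34197721 to 34201454, plus) and Tap2 (34203527 to 34216321, plus) sit side by side within 34335 bases. H2-K1 (33996017 to 34000347, minus), Tapbp (33915899 to 33929292, plus) and H2-D1 (35262730 to 35267499, plus) are the other members there. B2m is on chromosome 2 (122147686 to 122153083, plus). Psmb10 (105935735 to 105938444, minus) and Nlrc5 (94434356 to 94527272, plus) are on chromosome 8. Tap1 and Psmb9 overlap by 212 bases on opposite strands, and the antisense transcript Gm20496 (34199316 to 34205449) overlaps Psmb8 and Tap2. Since the strand setting of the counting is not given, reads in these overlaps cannot be told apart.

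Promoter sequences are shown for the members whose levels are compared below, to set the regulatory letters beside the counts. RefSeq promoters (GRCm38.p6) were matched for 8 of the 10 members, all except Tap2 and Nlrc5. Because the annotations place starts differently, the 250 bases before the RefSeq start lie wholly inside the GENCODE bounds for H2-D1, Tapbp, Psmb8 and Psmb9. The 250 bases before each RefSeq start were searched on both strands for 4 motifs. These were the interferon-stimulated response element GAAANNGAAA (ISRE), the gamma-activated site TTCNNNGAA (GAS), the NF-kB consensus and CCAAT, and the searches did not exclude overlaps. Capitals mark the matches, and sequences are written 5′ to 3′ along the gene's own strand. The B2m window, which holds 3 of the motifs, lies at chr2:122147437-122147685 (plus strand):
B2m: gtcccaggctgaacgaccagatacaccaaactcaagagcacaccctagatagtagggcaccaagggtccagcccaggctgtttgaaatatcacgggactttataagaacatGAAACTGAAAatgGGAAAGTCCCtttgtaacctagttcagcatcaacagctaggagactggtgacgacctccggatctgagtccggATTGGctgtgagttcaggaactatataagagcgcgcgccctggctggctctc
Its capitals are, in order, the ISRE, the NF-kB match and CCAAT read on the other strand. The heavy chains H2-K1 (chr17:34000439-34000467, minus strand) and H2-D1 (chr17:35262914-35262942, plus strand) carry an NF-kB match in near-identical surroundings, with 28 of 29 bases the same in this stretch:
H2-K1: cccagggctGGGGATTCCCCatctccaca
H2-D1: cccagggctGGGGATTCCCCatctcctca
In RefSeq, Tap1 and Psmb9 start with 225 bases between them and run in opposite directions, so their upstream windows share those 225 bases. The CCAAT of the Tap1 window (chr17:34187322-34187350, plus strand) is the same one that the Psmb9 window holds on its own strand. Psmb8 (chr17:34198088-34198116, plus strand) held the only GAS match among the 8:
Tap1: gggctcggctttCCAATcagcggctgcgc
Psmb8: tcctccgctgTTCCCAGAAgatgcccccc
An exact match to the ISRE pattern was found in 1 of the 8 members searched and in 2.98% of 32851 RefSeq promoter windows. A GAS was found in 1 of 8 and 7.02% of all windows, the NF-kB consensus in 3 of 8 (B2m, H2-K1 and H2-D1) and 3.9%, and CCAAT in 6 of 8 and 33.8%. These matches describe letters and were not tested as binding sites. Only exact matches to the patterns were sought, so a window without a match can still hold a looser variant of the motif.

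Set per length, in TPM (counts over the union length of each gene's exons, scaled to a fixed total per library), the members spanned a wide range of levels. B2m averaged 3385 TPM over the 12 libraries, H2-K1 605 TPM and H2-D1 462 TPM. Tapbp averaged 52.3 TPM, Psmb10 23.2, Psmb8 17.4, Tap2 11.3, Nlrc5 9.40, Tap1 9.12 and Psmb9 7.11 TPM. On the CPM scale, B2m, H2-K1 and H2-D1 made up most of the members' summed counts in every library. The genes that pump, cut and switch on were thus measured at far lower levels than the chains that are displayed. The spread between libraries also differed among members. The highest over the lowest library was 4.78-fold for Psmb9, 2.71-fold for Psmb8, 2.64-fold for Tap2, 2.37-fold for Tap1 and 2.16-fold for Psmb10. It was 1.91-fold for B2m, 1.87-fold for Nlrc5, 1.72-fold for Tapbp, 1.56-fold for H2-K1 and 1.42-fold for H2-D1.

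**Figure D1:**
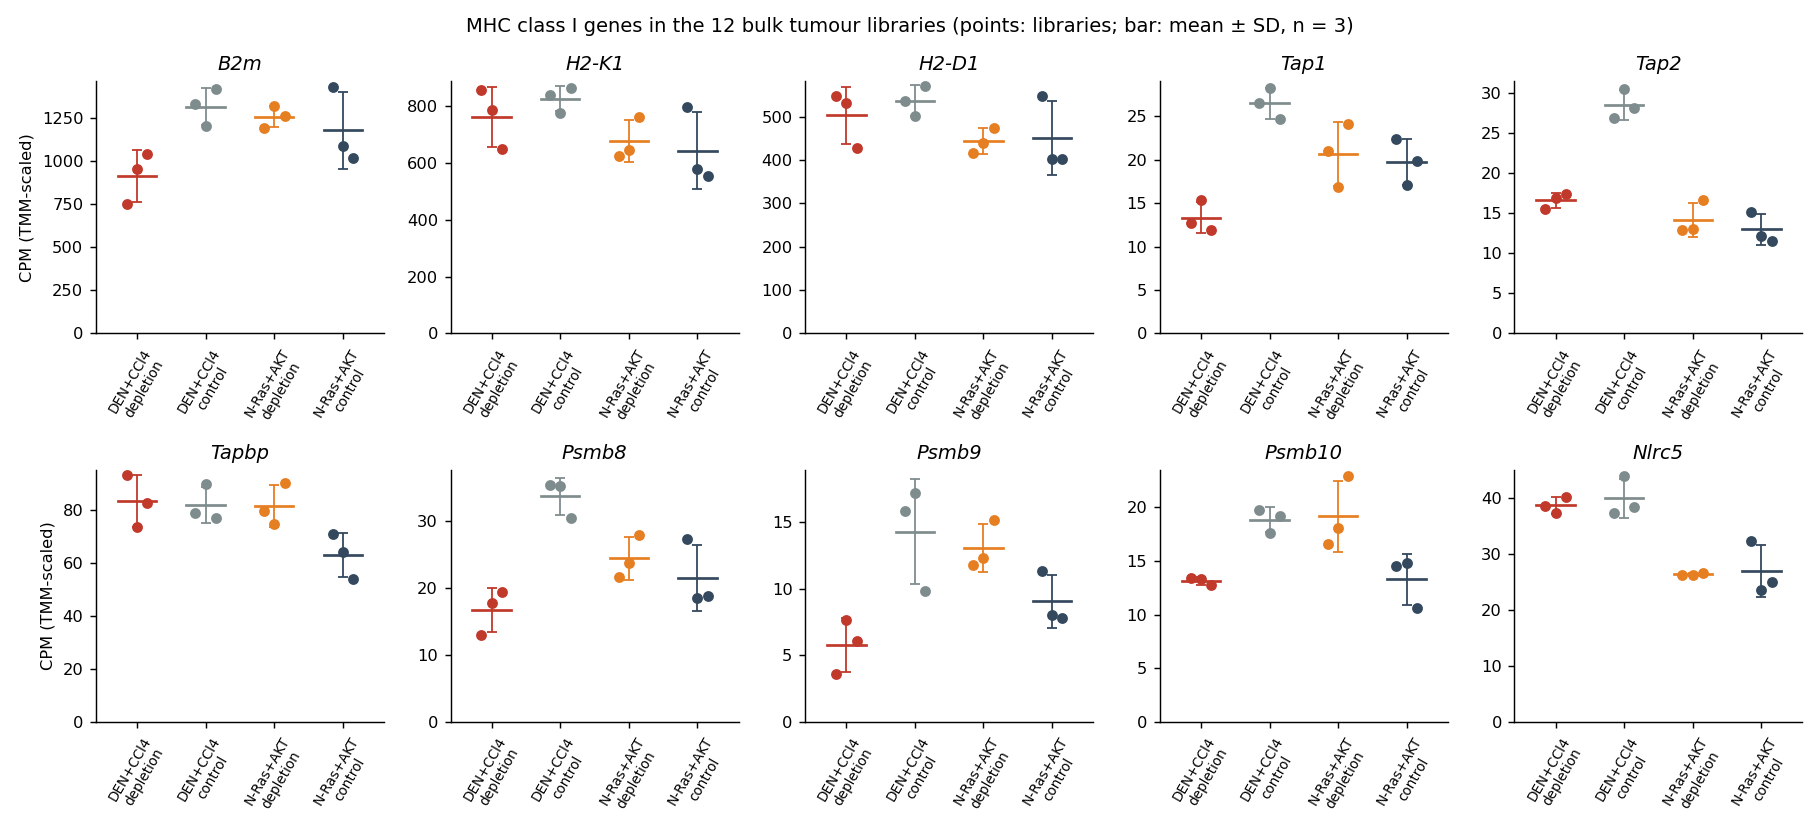
Level of each of the 10 class I genes in CPM (TMM-scaled, linear axes from 0) in the 12 bulk libraries. Points are libraries and bars are the mean ± SD of 3. The 3 DEN+CCl4 depletion libraries lie below all 3 DEN+CCl4 controls for B2m, Tap1, Tap2, Psmb8, Psmb9 and Psmb10, while Nlrc5 splits by model.

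In the DEN+CCl4 model, depletion tumours had lower levels of both transporter genes and of the immunoproteasome gene Psmb8 than control tumours. B2m, both heavy chains, Tapbp, Psmb9, Psmb10 and Nlrc5 did not pass the test. Tap1 and Psmb8 were at about the same fold, 0.504 and 0.498 of control, and Tap2 was at 0.583 of control. Of the 10 members, 3 fell and 0 rose at an adjusted p under 0.05, against 0.259% of all genes tested that fell. In 6 of 10 members all depletion libraries lay below all controls, against 16% of all genes. The members' median log2 fold change was −0.52, against −0.01 over all genes tested.

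Tap1, which with Tap2 forms the pump that moves peptides into the endoplasmic reticulum, had 12.7, 15.3 and 11.9 CPM in DEN+CCl4 depletion 6, 9 and 10, against 26.5, 28.2 and 24.7 CPM in control 7, 8 and 13. Its log2 fold change was −0.99 (SE 0.15, adjusted p = 0.0313, edgeR quasi-likelihood test). Tap2 had 15.5, 16.9 and 17.3 CPM in depletion, against 26.8, 30.5 and 28.1 CPM in control, a log2 fold change of −0.78 (SE 0.13, adjusted p = 0.0389). For both genes every depletion library was below every control, and the gap between the groups was wider than either group. Tapbp, which holds the empty class I molecule at the pump while a peptide is chosen, had 93.4, 73.8 and 82.9 CPM in depletion and 79.0, 89.8 and 77.2 CPM in control. Those groups overlapped, and the log2 difference was 0.02 (95% interval −0.26 to 0.31, adjusted p = 0.946).

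The 3 immunoproteasome subunits replace the catalytic subunits of the standard proteasome and change which peptides are cut. Psmb8 had 13.1, 17.8 and 19.3 CPM in DEN+CCl4 depletion, against 35.4, 35.1 and 30.4 CPM in control, a log2 fold change of −1.01 (SE 0.18, adjusted p = 0.045). Psmb9 had 3.59, 7.65 and 6.11 CPM in depletion, against 15.8, 17.1 and 9.84 CPM in control. Its log2 fold change of −1.30 was the largest in size of the 10 (SE 0.28), and the adjusted p was 0.0646. Control 13 was the lowest control. Psmb10 had 13.4, 13.3 and 12.7 CPM in depletion, against 19.8, 17.6 and 19.2 CPM in control (log2 −0.52, adjusted p = 0.106). Neither gene's groups overlapped.

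B2m, the light chain without which class I molecules do not stay at the surface, had 748, 954 and 1039 CPM in DEN+CCl4 depletion, against 1329, 1202 and 1417 CPM in control. The groups did not overlap. The log2 fold change was −0.53 (SE 0.18), which missed the threshold (adjusted p = 0.152). H2-K1 had 854, 785 and 646 CPM in depletion and 837, 775 and 861 CPM in control (log2 −0.11, 95% interval −0.50 to 0.27, adjusted p = 0.774). H2-D1 had 548, 533 and 429 CPM in depletion and 537, 501 and 572 CPM in control (log2 −0.09, 95% interval −0.44 to 0.26, adjusted p = 0.8). Depletion 10 was the lowest library for both heavy chains, whose sequences are related, and how reads that match both were counted is not given. Nlrc5, which drives transcription of the class I genes from their promoters, had 38.7, 37.3 and 40.3 CPM in depletion and 37.4, 44.0 and 38.5 CPM in control (log2 −0.05, adjusted p = 0.876).

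The DEN+CCl4 calls rested on few libraries. Those of Tap1, Tap2 and Psmb8 ended without depletion 6 (adjusted p = 0.0948, 0.126 and 0.129), depletion 9 (0.0608, 0.121 and 0.121), control 7 (0.168, 0.171 and 0.186), control 8 (0.119, 0.143 and 0.143) or control 13 (0.0506, 0.0699 and 0.0685), and held without depletion 10. Over all 12 alternatives the log2 fold change stayed between −1.10 and −0.91 for Tap1, −0.82 and −0.73 for Tap2 and −1.12 and −0.85 for Psmb8, with adjusted p from 1.31e-05 to 0.168, 0.000102 to 0.171 and 0.00017 to 0.186. DESeq2 also called B2m (adjusted p = 0.0294), Psmb9 (0.00116) and Psmb10 (0.0456), each the only one of its 12 alternatives to do so, with adjusted p up to 0.429, 0.212 and 0.276 in the others.

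In the N-Ras+AKT model, Psmb10 alone of the 10 members passed the test, and it was higher in depletion tumours. Here 12.8% of all genes rose and 10.8% fell, so 1 of 10 members is not a larger share than that of all genes. Psmb10 had 16.5, 18.1 and 22.8 CPM in N-Ras+AKT depletion 6, 11 and 17, against 14.5, 14.8 and 10.6 CPM in control 3, 10 and 15 (log2 0.53, SE 0.15, adjusted p = 0.0246). Depletion 17 was the highest library and control 15 the lowest. The call ended without either of them (adjusted p = 0.119 and 0.0848), in the 6 libraries alone (0.0808) and without both libraries that stand apart (0.103), within a range of 0.00922 to 0.119 over 12 alternatives.

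Psmb9 had 11.8, 12.3 and 15.1 CPM in N-Ras+AKT depletion, against 11.3, 8.01 and 7.79 CPM in control (log2 0.53, adjusted p = 0.182). Tapbp had 79.8, 74.7 and 90.4 CPM in depletion, against 71.0, 64.3 and 54.3 CPM in control (log2 0.37, adjusted p = 0.061). In these 2 and in Psmb10 all depletion libraries lay above all controls, 3 of 10 members against 21.4% of all genes. Psmb8 had 21.7, 23.7 and 27.9 CPM in depletion and 27.2, 18.4 and 18.8 CPM in control (log2 0.19, adjusted p = 0.485), where control 3 lay above 2 of the 3 depletion libraries. Tap1 had 21.03, 16.8 and 24.1 CPM in depletion and 22.4, 17.1 and 19.9 CPM in control (log2 0.06, 95% interval −0.26 to 0.39, adjusted p = 0.798). Tap2 had 12.9, 13.0 and 16.6 CPM in depletion and 15.2, 12.2 and 11.6 CPM in control (log2 0.13, 95% interval −0.16 to 0.42, adjusted p = 0.526). The groups overlapped for both transporter genes.

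The displayed chains and the transactivator also overlapped between N-Ras+AKT groups. B2m had 1193, 1318 and 1262 CPM in depletion and 1430, 1088 and 1016 CPM in control (log2 0.09). H2-K1 had 624, 643 and 760 CPM in depletion and 796, 577 and 553 CPM in control (log2 0.07), and H2-D1 had 417, 440 and 475 CPM in depletion and 548, 402 and 402 CPM in control (log2 −0.02). Nlrc5 had 26.3, 26.2 and 26.6 CPM in depletion and 32.3, 23.6 and 25.1 CPM in control (log2 −0.03). Control 3 was the highest of the 6 libraries for each of these 4 genes, and the members' median log2 fold change was 0.11, against −0.02 over all genes.

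**Figure D2:**
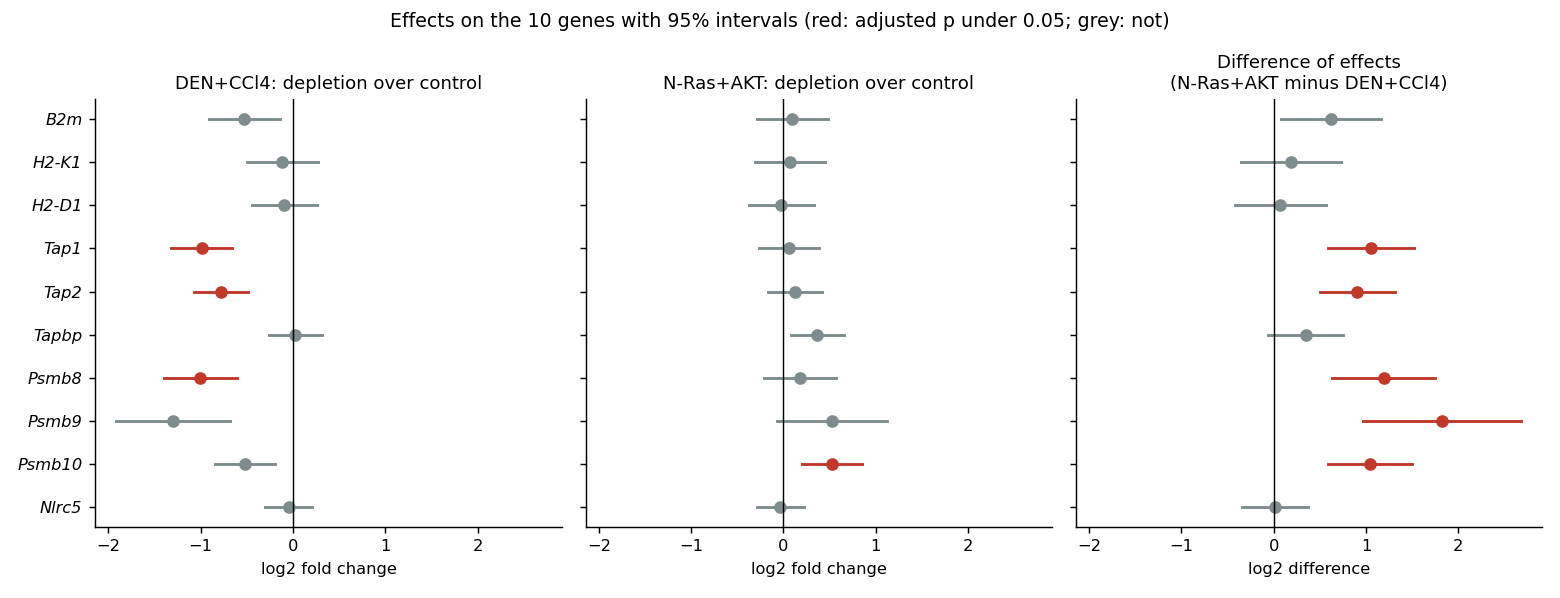
Log2 fold changes of the 10 genes with 95% intervals from the edgeR fit, depletion over control in DEN+CCl4 (left), in N-Ras+AKT (middle) and the difference of these effects (right, N-Ras+AKT minus DEN+CCl4), on the same axis. Red marks an adjusted p under 0.05 over all 17013 genes, which Tap1, Tap2, Psmb8, Psmb9 and Psmb10 have in the right panel.

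The effect of depletion differed between the models for the transporter and the immunoproteasome and was not shown to differ for the other members. In the test of the difference (N-Ras+AKT minus DEN+CCl4), 5 of 10 members passed, all with the higher effect in N-Ras+AKT, against 7.98% of all genes in that direction and 3.6% in the other. The difference was 1.05 for Tap1 (SE 0.21, adjusted p = 0.014), 0.91 for Tap2 (adjusted p = 0.0151), 1.19 for Psmb8 (adjusted p = 0.0167), 1.83 for Psmb9 (adjusted p = 0.0172) and 1.05 for Psmb10 (adjusted p = 0.0135), all on the log2 scale. These 5 calls held in all 17 alternatives, which included each of the 12 libraries left out in turn, except Psmb8 without both libraries that stand apart (log2 0.93, adjusted p = 0.0509). All 17 scaled the libraries by TMM or DESeq2 size factors. TPM means were not tested. In N-Ras+AKT they were lower in depletion than control for Tap1 (9.87 against 11.7), Tap2 (9.77 against 11.0) and Psmb8 (18.8 against 20.4). They were higher there for Psmb9 (9.29 against 7.93) and Psmb10 (29.2 against 24.9). In DEN+CCl4 the TPM means of all 5 were lower in depletion, such as Tap1 at 5.24 against 9.71. B2m had a difference of 0.62 (95% interval 0.08 to 1.16, adjusted p = 0.124) and Tapbp one of 0.35 (adjusted p = 0.241). H2-K1 (0.19, 95% interval −0.35 to 0.73), H2-D1 (0.07, 95% interval −0.42 to 0.57) and Nlrc5 (0.01, adjusted p = 0.974) had differences near 0.

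Set against the standard catalytic subunits, the share of the immunoproteasome stood highest in DEN+CCl4 control. Psmb5, Psmb6 and Psmb7, whose places are taken by Psmb8, Psmb9 and Psmb10, did not pass the test in either depletion comparison (log2 0.08, −0.05 and 0.03 in DEN+CCl4 and 0.22, 0.01 and 0.21 in N-Ras+AKT). The 3 immunoproteasome subunits summed, in TPM, to 16.4, 17.2 and 18.0% of the 3 standard ones in DEN+CCl4 depletion 6, 9 and 10, against 31.5, 29.9 and 30.6% in control 7, 8 and 13. In N-Ras+AKT the figure was 15.4, 13.8 and 21.04% in depletion 6, 11 and 17, against 17.2, 11.6 and 13.2% in control 3, 10 and 15. The DEN+CCl4 groups lay far apart and the N-Ras+AKT groups overlapped. These ratios are a description, with no test of their own.

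By subunit, Psmb8 stood at 13.0 ± 2.73% of Psmb5 in DEN+CCl4 depletion and 27.5 ± 0.463% in control (SD, n = 3). Psmb9 stood at 5.91 ± 1.49% of Psmb6 in depletion and 14.3 ± 3.43% in control, and Psmb10 at 42.2 ± 2.68% of Psmb7 in depletion and 62.0 ± 7.40% in control. In N-Ras+AKT, Psmb8 stood at 11.5 ± 2.89% of Psmb5 in depletion and 12.1 ± 4.33% in control, Psmb9 at 9.34 ± 1.73% of Psmb6 in depletion and 6.44 ± 1.28% in control, and Psmb10 at 37.4 ± 7.08% of Psmb7 in depletion and 29.8 ± 4.57% in control. Psmb10 was the closest to its partner in all 4 groups. The Psmb5, Psmb6 and Psmb7 levels were themselves higher in N-Ras+AKT than in DEN+CCl4 tumours, which bears on the ratios between models.

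**Figure D3:**
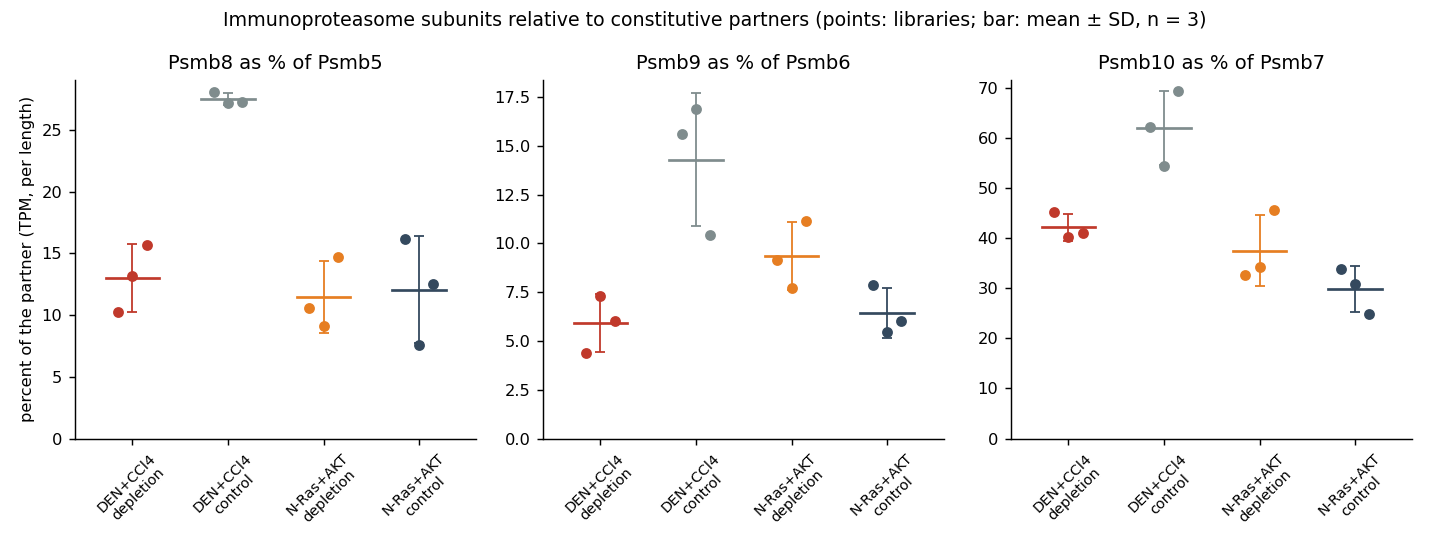
Each immunoproteasome subunit as a percent of the standard subunit it replaces, both in TPM, in the 12 libraries (points) with the mean ± SD of 3 (bars), axes from 0. Psmb8 is 27.2 to 28.1% of Psmb5 in DEN+CCl4 control and 7.54 to 16.2% in the libraries of the other 3 groups.

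The models also differed without depletion. Among control tumours, 6 of 10 members were lower and 0 higher in N-Ras+AKT than in DEN+CCl4, against 19.8% of all genes lower and 20.8% higher. These calls were made with TMM factors of 0.773 to 0.853 in DEN+CCl4 control and 1.225 to 1.323 in N-Ras+AKT control. In TPM, which was not tested, Tap2 was still lower in N-Ras+AKT control (mean 11.0 against 15.1). The other called members had higher TPM means there: Psmb8 20.4 against 19.9, Psmb10 24.9 against 22.1 and Tap1 11.7 against 9.71. Tapbp stood at 55.8 against 45.5 TPM and Nlrc5 at 10.2 against 9.47. Tap2 was at 13.0 ± 1.93 CPM in N-Ras+AKT control and 28.5 ± 1.86 CPM in DEN+CCl4 control (SD, n = 3), a log2 fold change of −1.13 (adjusted p = 0.000103). Nlrc5 was at 27.0 ± 4.66 CPM in N-Ras+AKT control and 40.0 ± 3.53 CPM in DEN+CCl4 control (log2 −0.57, adjusted p = 0.00276). These calls of Tap2 and Nlrc5 held in all 12 alternatives run. Psmb8 (log2 −0.65, adjusted p = 0.0135), Psmb10 (−0.50, 0.0177), Tap1 (−0.42, 0.0415) and Tapbp (−0.38, 0.0386) also passed. Psmb8 did not pass without N-Ras+AKT control 10 or 15 (adjusted p = 0.0523 and 0.0517). Psmb10 did not without DEN+CCl4 control 7 or 13 or N-Ras+AKT control 15 (0.0594, 0.0513 and 0.0654). The calls of Tap1 and Tapbp ended without any one of DEN+CCl4 control 7, 8 or 13 or N-Ras+AKT control 10 or 15 (adjusted p = 0.0596 to 0.141 for Tap1 and 0.0571 to 0.141 for Tapbp), and also with no filter on low counts (0.0613 and 0.0652). H2-K1, H2-D1, B2m and Psmb9 did not pass (log2 −0.36, −0.25, −0.16 and −0.66). DESeq2 called Psmb9 (adjusted p = 0.0498), as did the fit without DEN+CCl4 control 13 (0.0317), and H2-K1 passed without N-Ras+AKT control 3 (0.0301).

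Among depletion tumours, 4 of 10 members were higher and 1 lower in N-Ras+AKT than in DEN+CCl4, against 17.9% of all genes higher and 15.8% lower. Psmb9 was at 13.0 ± 1.80 CPM in N-Ras+AKT depletion and 5.78 ± 2.05 CPM in DEN+CCl4 depletion (SD, n = 3), with a log2 fold change of 1.17 (adjusted p = 0.00799). Tap1 (log2 0.63, adjusted p = 0.00778), Psmb8 (0.54, 0.0361) and Psmb10 (0.54, 0.0151) were also higher. Nlrc5 was lower, at 26.4 ± 0.221 CPM in N-Ras+AKT depletion and 38.7 ± 1.504 CPM in DEN+CCl4 depletion (log2 −0.55, adjusted p = 0.00392), a call that held in all 12 alternatives. Without both libraries that stand apart, the calls of Tap1, Psmb8, Psmb9 and Psmb10 ended (adjusted p = 0.0868, 0.339, 0.0597 and 0.114). Psmb8 did not pass without DEN+CCl4 depletion 6 or 9 or N-Ras+AKT depletion 11 or 17 (0.12, 0.0611, 0.0649 and 0.13), nor Psmb10 without N-Ras+AKT depletion 17 (0.0751). Cell type markers differed between the models too, and their part in these differences was not tested. Among control tumours 10 of 12 hepatocyte (median log2 −1.29), 8 of 12 endothelial (−1.59) and 5 of 10 B and plasma cell markers (−2.003) were lower in N-Ras+AKT, and 7 of 8 bile duct markers were higher (2.23). Of 19 T and NK cell markers 2 were lower and 0 higher there (−0.50). Of 19 myeloid and dendritic cell markers 3 were lower and 2 higher (−0.22). Of all genes 19.8% were lower and 20.8% higher there. Among depletion tumours 8 hepatocyte markers were lower and 1 higher (−1.22), and 3 endothelial markers were lower (−0.29). Of 8 bile duct markers 1 was higher (0.79). Of 19 T and NK cell markers 13 were higher and 1 lower (2.48), as were 13 and 1 of 19 myeloid and dendritic cell markers (0.998). Of all genes 17.9% were higher and 15.8% lower. Of 10 B and plasma cell markers 6 were higher and 2 lower (1.75). Their sum was lower, at 18.2 to 42.3 CPM in N-Ras+AKT depletion against 44.98 to 82.9 CPM in DEN+CCl4 depletion. Ms4a1, Pax5, Fcmr and Mzb1 of this list were at 0 counts in at least 1 DEN+CCl4 depletion library. These comparisons between models use the libraries of the depletion comparisons, so they are not separate evidence.

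Ordered by group mean in TMM-scaled CPM, the members thus fell into different patterns. For Tap1 the order from low to high was DEN+CCl4 depletion, N-Ras+AKT control, N-Ras+AKT depletion and DEN+CCl4 control, and N-Ras+AKT depletion overlapped N-Ras+AKT control. Psmb8 and Psmb9 had the same order. In Psmb8 the only neighbours that did not overlap were the 2 highest, N-Ras+AKT depletion and DEN+CCl4 control, while in Psmb9 those were the only ones that did overlap. For Tap2, DEN+CCl4 control stood above the 3 other groups, which overlapped their neighbours in the order. For Nlrc5, both DEN+CCl4 groups stood above both N-Ras+AKT groups. For B2m, H2-K1 and H2-D1 no group was separate from its neighbour in the order, although for B2m DEN+CCl4 depletion lay below DEN+CCl4 control.

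Across all 12 libraries, the 45 pairs of members had Pearson correlations of log2 CPM between −0.13 (B2m with Nlrc5) and 0.97 (H2-K1 with H2-D1), with a median of 0.50. Psmb8 and Psmb9 correlated at 0.90, Tap1 and Psmb8 at 0.87, and Tap1 and Psmb9, which share a promoter region and an overlap, at 0.85. Within the 6 DEN+CCl4 libraries the median over pairs was 0.31, with 10 pairs below 0, and within the 6 N-Ras+AKT libraries it was 0.74, with 0 pairs below 0. These correlations share library depth and group differences and are given as a description. Of 14139 other protein-coding genes, those most like the mean of the 10 members (standardised log2 CPM, Pearson r over 12 libraries) were Fnip2 (0.93), Fam47e (0.91), Pitpnm2 (0.91), Erg (0.90), Fgf1 (0.88), Arap3 (0.88), Tppp (0.88), Ddo (0.88), Snrk (0.88) and Shmt2 (0.88). In all, 57 such genes had an r of at least 0.8.

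Further genes of the pathway were read from lists fixed by name. Of 18 tested class I heavy chains and relatives outside the 10, none passed in DEN+CCl4 (edgeR; 9 lower at an unadjusted p under 0.05, against 11.1% of all genes; median log2 −0.38), while DESeq2 called 3 lower and limma-voom 0. With depletion in N-Ras+AKT, 6 rose and 3 fell, against 12.8% and 10.8% of all genes (median 0.32). H2-T24 rose (log2 1.22), as did Fcgrt, the receptor that recycles antibodies (0.83), and Hfe, which takes part in iron sensing (0.80), while H2-Q2 (−1.47) and H2-Q6 (−0.80) fell. Several H2-Q and H2-T genes are near-identical copies, so their separate values are uncertain. H2-T23, which codes for the nonclassical molecule Qa-1, had 125, 173 and 202 CPM in DEN+CCl4 depletion, against 325, 296 and 353 CPM in control (log2 −0.96, adjusted p = 0.0737). It had 94.9, 104 and 131 CPM in N-Ras+AKT depletion, against 87.6, 62.4 and 48.1 CPM in control (log2 0.74, adjusted p = 0.0363, held in 6 of 12 alternatives, up to 0.138). The difference of these effects passed (log2 1.70, adjusted p = 0.0125) and held in all 17 alternatives. H2-Q10, a class I molecule secreted by the liver, did not pass in either (log2 −0.51 and 0.39, adjusted p = 0.243 and 0.217).

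In the rest of the loading and cutting machinery few genes passed. Of 20 tested genes of peptide loading and trimming, none passed in DEN+CCl4 (edgeR; 1 higher at an unadjusted p under 0.05, against 7.63% of all genes; median log2 −0.02), while DESeq2 called 1 higher and limma-voom 0. Depletion in N-Ras+AKT gave 3 that rose and 0 that fell, a share that rose close to the 12.8% of all genes. These were Erap1, which trims peptides in the endoplasmic reticulum (log2 0.61, adjusted p = 0.0197, up to 0.095 over 12 alternatives), the aminopeptidase Lap3 (0.56) and Edem1 (0.48). No gene of this list was called without depletion 17 or control 3. Of the 14 subunits of the standard proteasome core, none passed in DEN+CCl4 with edgeR, DESeq2 or limma-voom (2 higher at an unadjusted p under 0.05; median 0.09) and 1 rose in N-Ras+AKT, Psma6 (log2 0.32; median 0.13). Psme1, part of the activator that caps the proteasome, had a log2 fold change of 0.50 in N-Ras+AKT (adjusted p = 0.0128, up to 0.0526 over 12 alternatives) and −0.14 in DEN+CCl4 (adjusted p = 0.567). The difference passed (log2 0.64, adjusted p = 0.0314) and held in 8 of 17 alternatives, with adjusted p up to 0.104. Its partner Psme2 did not pass in either (log2 0.42 in N-Ras+AKT and −0.19 in DEN+CCl4, adjusted p = 0.0507 and 0.514).

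Among 25 transcriptional regulators of class I genes, 2 rose in DEN+CCl4 depletion and 0 fell, against 0.112% of all genes that rose. They were the NF-kB subunits Relb (log2 1.49, adjusted p = 0.045) and Nfkb2 (log2 0.88, adjusted p = 0.0427). No regulator was called higher without depletion 6 or 9 or control 7 or 8, in the 6 libraries alone or without both libraries that stand apart, and 1 was called without control 13. In the N-Ras+AKT model both of these genes fell (Relb −1.31, Nfkb2 −0.89), with 4 others, and 4 rose, including Batf3 (1.90) and Irf7 (1.18). Of all genes 10.8% fell and 12.8% rose, so the share of regulators that rose is near that of all genes. Irf1, an interferon-driven activator of class I genes, did not pass in either model (log2 −0.04 in DEN+CCl4 and 0.35 in N-Ras+AKT, adjusted p = 0.931 and 0.173), nor did Irf2 (−0.15 and 0.30) or Rfx5 (0.16 and 0.06), a subunit of the complex that Nlrc5 joins at promoters.

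Interferon-stimulated genes outside the 10 were read from a list of their own. Of 33 tested, none passed in DEN+CCl4 (edgeR; 20 lower at an unadjusted p under 0.05, against 11.1% of all genes), and 27 had all depletion libraries below all controls (16% of all genes; median log2 −0.65). DESeq2 called 12 of them lower and limma-voom 0. In the N-Ras+AKT model 16 rose and 0 fell, against 12.8% and 10.8% of all genes (median 0.63; 4 lay below 0; 8 to 17 rose over the alternatives), led by Oas2 (log2 1.54), Zbp1 (1.26), Ifi47 (1.17), Rtp4 (1.12) and Oasl2 (1.03). In the difference of effects 21 passed, all higher in N-Ras+AKT, against 7.98% of all genes in that direction. The median difference was 1.10, against −0.03 over all genes. The number that passed was 12 to 22 over the 17 alternatives. Interferon gamma itself (Ifng) had counts of 0 to 7 and was not tested. Ifngr1, a chain of its receptor, fell in N-Ras+AKT depletion (log2 −0.99, adjusted p = 0.0138) and did not pass in DEN+CCl4 (0.21, adjusted p = 0.668). Cd274, the interferon-inducible checkpoint ligand PD-L1, did not pass in either (log2 −0.38 and 0.61).

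**Figure D4:**
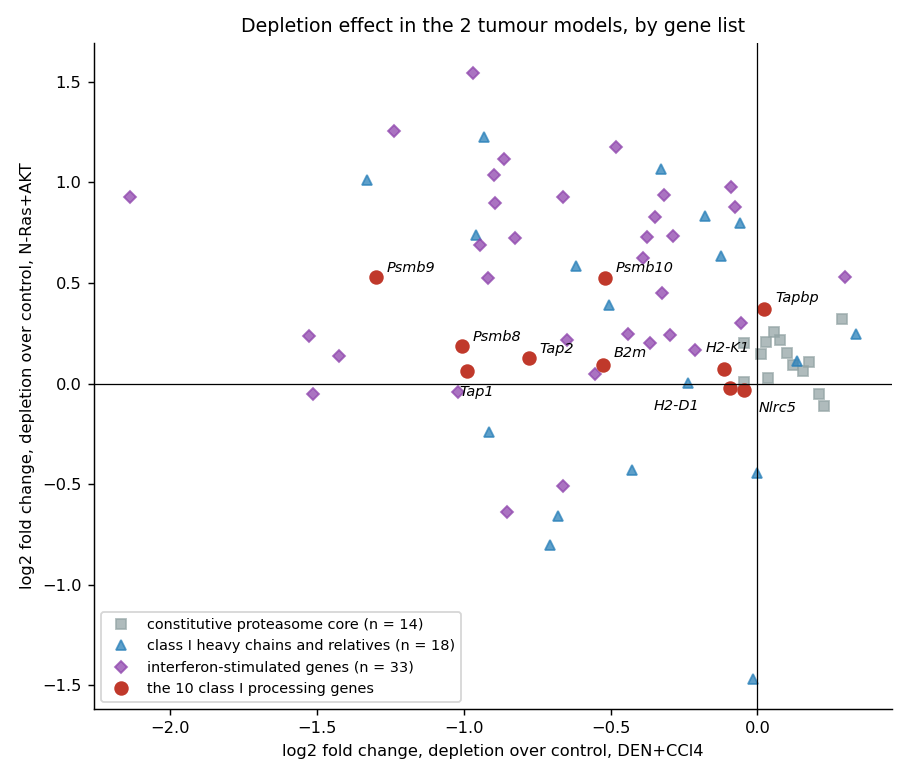
Log2 fold change of depletion over control in DEN+CCl4 (horizontal) and N-Ras+AKT (vertical) for the 10 class I genes and the genes of 3 lists, 1 point a gene. Interferon-stimulated genes lie mostly at negative values in DEN+CCl4 and positive ones in N-Ras+AKT, the standard proteasome core lies near 0 in both, and Tap1, Tap2, Psmb8 and Psmb9 lie at −0.78 or lower in DEN+CCl4.

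Several lists of cell type markers moved in the same comparisons, and their part in these results was not tested. The 20 T and NK cell markers summed to 5.64 to 15.5 CPM in DEN+CCl4 depletion, against 17.3 to 20.7 CPM in control. They summed to 13.3 to 26.7 CPM in N-Ras+AKT depletion, against 5.97 to 11.1 CPM in control. Of 19 tested, none passed in DEN+CCl4 (edgeR; 8 lower at an unadjusted p under 0.05; DESeq2 1 lower, limma-voom 0; median log2 −1.34), and 7 rose in N-Ras+AKT (median 1.37; 1 to 8 over the alternatives), among them Gzma (2.37), Klrk1 (2.004), Nkg7 (1.94), Cd3e (1.85) and Cd8a (1.70). Of all genes, 12.8% rose in N-Ras+AKT, and 11.1% were lower in DEN+CCl4 at an unadjusted p under 0.05. The N-Ras+AKT call of Cd3e held in 5 of 12 alternatives. It rests on 18, 22 and 31 counts in depletion, against 4, 16 and 4 in control. Cd8b1, Trbc1 and Ncr1 were at 0 counts in at least 1 DEN+CCl4 depletion library, and Ncr1 in at least 1 N-Ras+AKT control. Cd8a, the co-receptor of the T cells that read class I, had 1, 11 and 8 counts in DEN+CCl4 depletion, against 10, 30 and 32 in control, and 70, 42 and 85 counts in N-Ras+AKT depletion, against 18, 37 and 20 in control.

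The other marker lists differed in direction and size. Of all genes, 12.8% rose and 10.8% fell in N-Ras+AKT. In DEN+CCl4, 7.63% of all genes were higher and 11.1% lower at an unadjusted p under 0.05. The 19 myeloid and dendritic cell markers summed to 256 to 341 CPM in DEN+CCl4 depletion, against 305 to 322 CPM in control, which overlapped (median log2 −0.14), and to 473 to 611 CPM in N-Ras+AKT depletion, against 203 to 319 CPM in control. None of the 19 passed in DEN+CCl4 (edgeR; 1 higher and 6 lower at an unadjusted p under 0.05; DESeq2 1 higher, limma-voom 0) and 9 rose in N-Ras+AKT, led by Timd4 (log2 2.65) and Clec4f (2.05) of liver macrophages. The 12 endothelial markers summed to 214 to 365 CPM in DEN+CCl4 depletion, against 488 to 531 CPM in control (edgeR, 0 passed; 9 lower at an unadjusted p under 0.05; DESeq2 9 lower, limma-voom 1; median −0.89), and to 191 to 228 CPM in N-Ras+AKT depletion, against 155 to 205 CPM in control, where 4 of the 12 rose and 1 fell (median 0.11). The 10 B and plasma cell markers summed to 44.98 to 82.9 CPM in DEN+CCl4 depletion, against 97.4 to 174 CPM in control. None of the 10 passed there with edgeR (median −1.63), and 9 were lower at an unadjusted p under 0.05. Over the alternatives 0 to 1 were called lower. They summed to 18.2 to 42.3 CPM in N-Ras+AKT depletion, against 9.29 to 10.7 CPM in control. There 5 rose and 0 fell (median 1.91), and 1 to 9 rose over the alternatives. The 8 bile duct epithelium markers summed to 48.2 to 155 CPM in DEN+CCl4 depletion, against 198 to 494 CPM in control, with none passing (edgeR; 1 lower at an unadjusted p under 0.05; DESeq2 0, limma-voom 0; median −0.65). They summed to 310 to 3486 CPM in N-Ras+AKT depletion, against 7145 to 10338 CPM in control, where 5 fell and 0 rose (median −2.12). The groups did not overlap in either model. Ptprc (CD45), carried by all leukocytes, did not pass in either model (log2 −0.64 and 0.68, adjusted p = 0.242 and 0.0956).

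**Figure D5:**
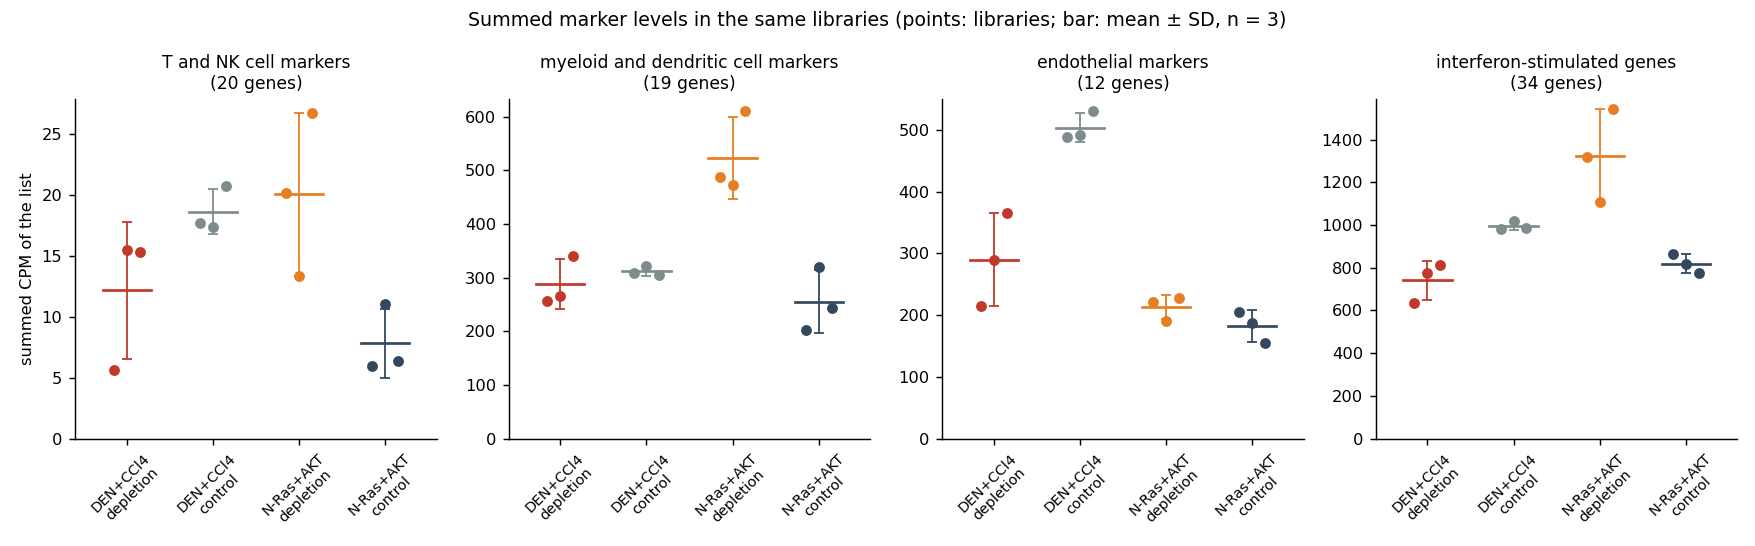
Summed CPM of 3 lists of cell type markers and of the interferon-stimulated genes in the 12 libraries (points) with the mean ± SD of 3 (bars), axes from 0. T and NK cell markers, endothelial markers and interferon-stimulated genes are lower in all DEN+CCl4 depletion libraries than in all DEN+CCl4 controls.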

How the data were processed

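The authors deposited gene-level counts, all whole and not normalized, for the 12 bulk libraries in a single table. Per the labels' protocols, poly-A libraries were made with the KAPA mRNA HyperPrep kit. The submitters' processing notes name RSEM 1.3.1, STAR 2.7.3 and the build mm10 without saying which data each served, so counts may be rounded model estimates. The sources used here give neither strand setting nor filters. Symbols came from GENCODE M21 (55154 of 55335 identifiers matched).

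After filterByExpr, which left 17013 genes, and TMM scaling, edgeR 4.0.16 (R 4.3.3) fitted all 4 groups in 1 robust quasi-likelihood model with 8 residual degrees of freedom. Tests were two-sided. A gene was called where its p, adjusted by Benjamini-Hochberg over the 17013 genes, was under 0.05. The steps were tested on simulated data. Of genes set 2-fold lower or higher, 42.9% and 50% were called in DEN+CCl4 and 40.8% and 44.9% in N-Ras+AKT. A gene that did not pass can therefore still differ. Alternatives were DESeq2 1.42.0, its size factors, limma-voom 3.58.1, no filter on low counts, 6 libraries alone and each library left out. The members and lists were chosen with earlier results of these data known. By rule, the text names all members, Prom1, 19 fixed genes (of which 1 is not reported here), up to 5 called genes of a list by size of change, and the 10 protein-coding genes that correlate best with the members’ mean. Nothing in the labels says whether replicates came from separate mice, so p-values measure the spread between these samples. The series' 6 single-cell samples were not used.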

Additional observations from a re-analysis of the deposited data

Results flagged for a closer look

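The effect of depletion differed between the models, by the test of the difference in the edgeR fit, for 5 of the 10 class I genes and 5 other named genes. The log2 difference (N-Ras+AKT minus DEN+CCl4) was 1.05 for Tap1, 0.91 for Tap2, 1.19 for Psmb8, 1.83 for Psmb9 and 1.05 for Psmb10. It was 1.70 for H2-T23, which held in all 17 alternatives. Smaller numbers of alternatives kept the call for Psme1 (log2 0.64, 8 of 17), the class II transactivator Ciita (2.23, 8 of 17), Ifngr1 (−1.20, 6 of 17) and Cd8a (3.49, 13 of 17), with adjusted p up to 0.104, 0.0817, 0.0957 and 0.056. For Psmb9 and Psmb10 all depletion libraries lay below all controls in DEN+CCl4 and above all controls in N-Ras+AKT, and of these 4 comparisons Psmb10 in N-Ras+AKT was the one that passed the test. Cd8a rests on 1 to 85 counts per library.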

How the results depend on the processing

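No paired analysis was possible because the groups compared share fewer than 2 replicate numbers. With 1 library left out in turn, DEN+CCl4 depletion against control had 2 to 465 genes called (63 with all) and 0 to 3 members (3 with all), N-Ras+AKT depletion against control 1768 to 4126 genes (4027) and 0 to 1 members (1), and the difference of the effects 895 to 2326 genes (1970). Between the models, 2 to 7 members were called among control tumours (6 with all) and 3 to 5 among depletion tumours (5 with all). DESeq2 called 1066 genes and 6 members in DEN+CCl4, 2 members in N-Ras+AKT and 2984 genes in the difference. With no filter on low counts 171 genes were called in DEN+CCl4. The 6 libraries compared alone gave 13 genes and 0 members in DEN+CCl4 and 2626 genes and 0 members in N-Ras+AKT. Without DEN+CCl4 depletion 6 and N-Ras+AKT depletion 17, chosen after seeing the data, 26 genes and 0 members were called in DEN+CCl4, 2429 and 0 in N-Ras+AKT, 844 genes in the difference, and 2 members between the models among depletion tumours. The cause was not tested. Removing a library also leaves fewer samples.

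Members without a call and near 0 changed sign in places (log2 fold changes). Without those 2 libraries, Tapbp stood at −0.0595 in DEN+CCl4, and H2-K1 at −0.0174, Tap1 at −0.0627 and Tap2 at −0.00321 in N-Ras+AKT. With 1 library left out in turn, DEN+CCl4 values ran from −0.157 to 0.0103 for H2-D1, −0.0635 to 0.104 for Tapbp and −0.0934 to 0.0298 for Nlrc5. N-Ras+AKT values ran from −0.0226 to 0.259 for H2-K1, −0.0959 to 0.143 for H2-D1, −0.0669 to 0.194 for Tap1, −0.0081 to 0.254 for Tap2 and −0.119 to 0.117 for Nlrc5. The difference of effects ran from −0.0298 to 0.237 for H2-D1 and −0.073 to 0.164 for Nlrc5. Among depletion tumours the difference between models ran from −0.132 to 0.0585 for Tapbp. Of the other member values under alternatives, 558 kept direction and side of the threshold, 52 lost a call and 12 gained one. Scaling by library size alone moved levels, such as B2m in N-Ras+AKT control from 1178 CPM with TMM scaling to 1493 CPM. The order of the models can depend on the scale. B2m was lower in N-Ras+AKT control than in DEN+CCl4 control (1316 CPM) with TMM scaling, and higher in TPM (mean 4395 against 3061). The direction of a small depletion effect can depend on it too. Within N-Ras+AKT, B2m was higher in depletion than control with TMM scaling (mean 1258 against 1178 CPM) and lower in TPM (3824 against 4395).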

Other observations

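Genes of class II presentation, which shows peptides to CD4 T cells, were not among the 10. Of 10 tested, none passed in DEN+CCl4 depletion against control (edgeR; 6 lower at an unadjusted p under 0.05, against 11.1% of all genes; DESeq2 5 lower, limma-voom 0; median log2 −1.09). With depletion in N-Ras+AKT 6 rose and 0 fell (median 1.02; 1 to 10 over the alternatives), led by H2-Ob (log2 2.21) and H2-DMb2 (1.78), which act in peptide exchange, and the difference of the effects passed for 8, with 0 lower. Of all genes, 12.8% rose in N-Ras+AKT and 7.98% passed higher in the difference. The summed level was 62.1 to 107 CPM in DEN+CCl4 depletion, against 114 to 161 CPM in control, and 258 to 356 CPM in N-Ras+AKT depletion, against 162 to 196 CPM in control. Ciita, which drives these genes, did not pass in either model (log2 −1.02 and 1.21, adjusted p = 0.235 and 0.0543).

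Standard proteasome genes differed between the models in many cases. Among control tumours, 12 of 14 core subunits were higher in N-Ras+AKT than in DEN+CCl4, among them Psmb3 (log2 0.80) and Psma5 (0.75), and 11 of 18 subunits of the regulatory particle, among them Psmd8 (1.25), against 20.8% of all genes. Among depletion tumours these numbers were 11 of 14 and 14 of 18, against 17.9% of all genes. With TMM scaling, members of the 10 that moved the other way between controls included Psmb8 and Psmb10, with log2 fold changes of −0.65 and −0.50. In TPM their means were instead slightly higher in N-Ras+AKT control, at 20.4 against 19.9 for Psmb8 and 24.9 against 22.1 for Psmb10.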
